A study of Mus musculus with 10 samples.

Results

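Levels of the immediate early genes *Fos*, *Fosb*, *Fosl2*, *Jun*, *Junb*, *Egr1*, *Egr3*, *Nr4a1*, *Npas4* and *Arc* were measured by bulk RNA-sequencing of dorsal root ganglia (DRG) of 10 mouse embryos. The genes were taken by their mouse symbols from the 55414 Ensembl genes counted in each library, and all 10 were found. DRG were dissected at E18.5 from 5 *WD1* cKO embryos, which carry *Wnt1*-Cre on 1 allele and 2 floxed alleles of *Dach1*, and from 5 control embryos, which carry the same floxed alleles without Cre. *Wnt1*-Cre acts in the neural crest, from which DRG neurons and their glia derive, so cells of other lineages in the ganglia keep *Dach1*. The floxed line was of mixed C57Bl/6J and CD1 background, the controls were littermates, and the labels name no litter or sex. The titles and the genotype entries of the labels contradict each other, each giving the other group's genotype, and the titles were followed. The question put to these genes was how far they spread between embryos, whether they varied together, and whether they differed by genotype.

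Immediate early genes are transcribed within minutes of a stimulus, from factors that are already present in the cell, and their RNAs decay quickly. Depolarization and calcium entry, growth factors, tissue handling and injury all induce them, and in DRG neurons *Jun* is induced by axon damage. Most encode transcription factors, and *Arc* encodes a synaptic protein. In bulk tissue, fewer cells that express a gene and less RNA per cell cannot be told apart.

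Libraries of control embryos held between 20465132 and 27528784 counts, and those of *WD1* cKO embryos between 19757596 and 34796562. Levels are given as CPM, the count of a gene relative to the total of its library, after TMM scaling between libraries. *Dach1*, which checks the labels, was at 35.1, 38.5, 41.6, 37.1 and 37.4 CPM in control replicates 1 to 5 and at 19.1, 20.7, 19.5, 20.3 and 20.4 CPM in *WD1* cKO replicates 1 to 5. All *WD1* cKO embryos lay below all control embryos, as the titles give the groups. The tissue label was checked against 8 sensory neuron markers, none of which was at 0 in any library, and their summed level ranged from 6127 to 6545 CPM. The 7 glia markers summed to between 879 and 1152 CPM.

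All 10 genes were expressed in every embryo and were among the 17490 genes tested, which reached 10 counts in 5 or more libraries. To order them, levels were divided by the exon length of each gene in the GENCODE annotation of GRCm38. *Jun* was the highest at 19.2 ± 1.72 CPM per kilobase (SD, n = 10), at the 85.1th percentile of the genes tested, followed by *Nr4a1* at 9.30 ± 1.22. These genes stood clear of each other and of the rest in all 10 embryos. *Junb* (2.86 ± 0.259), *Egr1* (2.23 ± 0.380), *Egr3* (1.73 ± 0.407), *Fosl2* (1.49 ± 0.198) and *Fos* (1.47 ± 0.351 CPM per kilobase) came next, and each overlapped with its neighbour in this order. *Fosl2* exceeded *Fos* in 5 of 10 embryos. *Arc* (0.776 ± 0.176) and *Npas4* (0.557 ± 0.0997) were lower and overlapped with each other, whereas *Fosb*, at 0.150 ± 0.0696 CPM per kilobase, lay below *Npas4* in all 10 embryos and at the 2.38th percentile.

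The promoters of *Fos*, *Fosb*, *Jun*, *Nr4a1* and *Npas4* are shown because these genes belong to the pairs that varied together between embryos with an r above 0.7. Given are the 250 bases before the start of each gene, from RefSeq on GRCm38.p6, for *Fos* (chr12:85473640-85473889, plus strand), *Fosb* (chr7:19310046-19310295, minus strand), *Jun* (chr4:95052223-95052472, minus strand), *Nr4a1* (chr15:101266596-101266845, plus strand) and *Npas4* (chr19:4989972-4990221, minus strand). Capitals mark TGACG on either strand (CGTCA on the strand shown), the core of the element through which cyclic AMP and calcium act.
Fos: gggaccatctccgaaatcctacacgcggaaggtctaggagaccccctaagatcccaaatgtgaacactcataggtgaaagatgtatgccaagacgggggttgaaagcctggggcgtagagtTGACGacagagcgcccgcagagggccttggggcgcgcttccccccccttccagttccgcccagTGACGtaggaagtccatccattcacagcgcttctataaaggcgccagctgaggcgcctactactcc
Fosb: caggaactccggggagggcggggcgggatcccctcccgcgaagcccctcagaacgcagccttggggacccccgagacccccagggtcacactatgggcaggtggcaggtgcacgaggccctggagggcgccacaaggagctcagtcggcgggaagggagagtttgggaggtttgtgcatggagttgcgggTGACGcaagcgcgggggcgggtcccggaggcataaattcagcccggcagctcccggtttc
Jun: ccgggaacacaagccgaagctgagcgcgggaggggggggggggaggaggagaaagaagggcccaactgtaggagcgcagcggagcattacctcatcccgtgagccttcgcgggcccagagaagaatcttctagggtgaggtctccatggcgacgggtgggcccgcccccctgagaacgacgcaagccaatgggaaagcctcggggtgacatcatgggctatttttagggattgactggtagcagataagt
Nr4a1: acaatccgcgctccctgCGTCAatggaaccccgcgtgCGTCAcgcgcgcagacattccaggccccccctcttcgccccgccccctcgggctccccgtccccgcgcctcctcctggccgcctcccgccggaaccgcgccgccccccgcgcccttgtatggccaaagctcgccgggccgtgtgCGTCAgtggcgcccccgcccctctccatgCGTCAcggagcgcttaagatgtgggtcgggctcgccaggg
Npas4: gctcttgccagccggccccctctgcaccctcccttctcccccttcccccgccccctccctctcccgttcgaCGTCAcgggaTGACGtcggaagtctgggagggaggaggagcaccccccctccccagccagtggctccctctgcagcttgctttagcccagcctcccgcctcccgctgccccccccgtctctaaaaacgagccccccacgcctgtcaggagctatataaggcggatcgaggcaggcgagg

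RefSeq promoters were matched for 7 of the 10 genes (*Egr1*, *Egr3* and *Arc* have no entry in the table used). TGACG was found on either strand in 5 of these 7, against 17.8% of the 32851 promoters of the same length, with 4 matches in *Nr4a1*, 2 in *Fos*, 2 in *Npas4*, 1 in *Fosb* and 1 in *Junb*. The *Egr* site GCGNGGGCG was found in 3 of 7 (*Fosb*, *Fosl2* and *Nr4a1*), against 4.70% of all promoters. The full cyclic AMP element TGACGTCA, which contains TGACG, the AP-1 site TGANTCA and the CArG box of serum response factor had no match in these windows, where 1.55%, 6.75% and 1.47% of all promoters have one. A match is a run of letters and no measure of binding.

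*Fos*, *Fosb* and *Fosl2* encode partners of the Jun proteins in the transcription factor AP-1. *Fos* (ENSMUSG00000021250) was at 3.32, 3.57, 2.73, 4.23 and 4.84 CPM in control replicates 1 to 5 and at 2.06, 2.70, 3.21, 4.07 and 3.78 CPM in *WD1* cKO replicates 1 to 5. In both groups replicates 4 and 5 were the highest, *WD1* cKO replicates 1 and 2 lay below all controls, and the groups overlapped. *Fosb* (ENSMUSG00000003545) was at 0.780, 0.617, 1.13, 0.920 and 1.85 CPM in control and at 0.505, 0.342, 1.32, 0.864 and 1.04 CPM in *WD1* cKO replicates 1 to 5. It rested on 9 to 42 counts per library, control replicate 5 was the highest and *WD1* cKO replicate 2 the lowest, a 5.40-fold range. *Fosl2* (ENSMUSG00000029135), the family member with a slower and longer induction, was at 13.0, 11.4, 14.9, 16.4 and 13.5 CPM in control and at 11.7, 14.8, 16.2, 16.5 and 15.9 CPM in *WD1* cKO replicates 1 to 5. The groups overlapped, with control replicates 1 and 2 and *WD1* cKO replicate 1 at the low end.

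*Jun* and *Junb* encode the DNA-binding partners that AP-1 requires, and *Jun* is also part of the response of sensory neurons to axon injury. *Jun* (ENSMUSG00000052684) was at 58.2, 50.5, 65.0, 56.8 and 64.4 CPM in control and at 60.2, 65.7, 63.2, 59.4 and 69.8 CPM in *WD1* cKO replicates 1 to 5. Its 1.38-fold range was the narrowest of the 10 genes, control replicate 2 was the lowest, and *WD1* cKO replicates 2 and 5 lay above all controls. *Junb* (ENSMUSG00000052837) was at 6.49, 6.66, 6.45, 6.99 and 5.41 CPM in control and at 6.15, 6.35, 6.42, 7.22 and 7.56 CPM in *WD1* cKO replicates 1 to 5. Control replicate 5, the embryo with the most *Fos* and *Fosb*, had the least *Junb*. On the opposite strand, *Jun* shares 232 exon bases with *Junos* and *Junb* shares 173 with *Prdx2*, which had 77731 counts over the 10 libraries. Because the strand setting of the counting is not stated, reads in those bases cannot be assigned with certainty.

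*Egr1* and *Egr3* encode zinc finger factors induced by neuronal activity and growth factors, and *Egr3* is required for muscle spindles and their sensory innervation. *Egr1* (ENSMUSG00000038418) was at 12.8, 10.1, 9.18, 9.20 and 12.6 CPM in control and at 8.76, 8.06, 11.6, 9.10 and 8.77 CPM in *WD1* cKO replicates 1 to 5. In 4 of 5 *WD1* cKO embryos *Egr1* was below all controls, and *WD1* cKO replicate 3 lay within the control range. *Egr3* (ENSMUSG00000033730) was at 6.88, 5.87, 7.39, 5.96 and 9.24 CPM in control and at 5.05, 10.2, 8.08, 7.42 and 10.1 CPM in *WD1* cKO replicates 1 to 5. *WD1* cKO embryos held both the lowest value, in replicate 1, and the highest, in replicate 2.

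*Nr4a1* encodes an orphan nuclear receptor, *Npas4* a factor induced by calcium influx in neurons, and *Arc* a protein of synapses that regulates receptor trafficking. *Nr4a1* (ENSMUSG00000023034) was at 32.6, 26.7, 32.4, 29.7 and 37.8 CPM in control and at 24.9, 36.7, 35.8, 34.4 and 35.2 CPM in *WD1* cKO replicates 1 to 5. *WD1* cKO replicate 1 stood below the other 9 embryos, and the remaining *WD1* cKO embryos lay within the upper part of the control range. *Npas4* (ENSMUSG00000045903) was at 1.95, 2.21, 3.01, 2.06 and 2.90 CPM in control and at 2.11, 1.75, 2.15, 2.29 and 2.63 CPM in *WD1* cKO replicates 1 to 5. *Arc* (ENSMUSG00000022602) was at 2.00, 2.03, 1.93, 3.24 and 2.86 CPM in control and at 1.73, 2.20, 2.02, 2.59 and 3.12 CPM in *WD1* cKO replicates 1 to 5. As for *Fos*, *Arc* was highest in replicates 4 and 5 of both groups, and these 4 embryos lay above the other 6 for either gene. This grouping was noticed in the values, and the labels do not say what embryos of the same number share. These libraries also had the highest share of mitochondrial counts in each group, at 2.08%, 1.85%, 1.97%, 2.13% and 2.14% in control and at 1.80%, 1.97%, 1.88%, 2.13% and 2.45% in *WD1* cKO replicates 1 to 5. Over all genes, *WD1* cKO replicates 4 and 5 differed least of the pairs in their group (chi-square per degree of freedom of 3.99, against 6.05 to 12.7), while for control replicates 4 and 5 it was 7.08 and the lowest, for replicates 1 and 2, was 6.32. This measure was taken on raw counts and rises with depth. Control replicates 4 and 5 held 27528784 and 23141760 counts, and replicates 1 and 2 held 20465132 and 22544236. Which of these control pairs is closer is therefore not settled. The part of the mitochondrial share and of these differences between libraries in the levels of *Fos* and *Arc* was not tested.

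**Figure D1:**
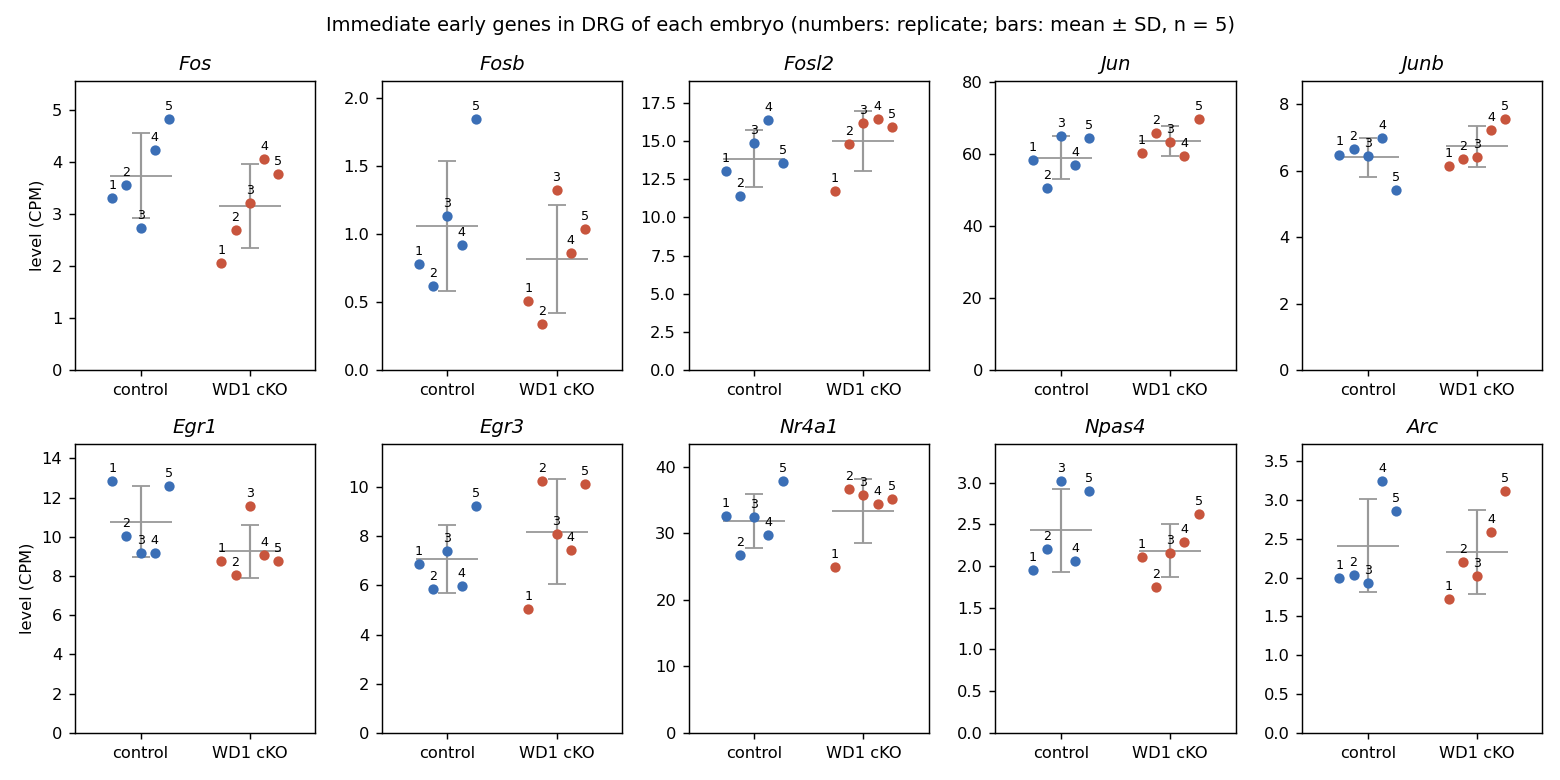
Level in CPM (vertical axis, from 0) of each immediate early gene in control (blue) and *WD1* cKO (red) embryos, with the replicate number beside each point and bars for the mean ± SD (n = 5 per group). The groups overlap for all 10 genes, and replicates 4 and 5 are the highest of each group for *Fos* and *Arc*.

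The genotype comparison asked whether loss of *Dach1* was accompanied by another level of these genes. With edgeR's quasi-likelihood test and Benjamini-Hochberg adjustment over all genes tested, 0 of 10 immediate early genes passed an adjusted p-value of 0.05, against 0.04% of the genes tested (7 of 17490, and 3 to 6 when single libraries were left out). At an unadjusted p-value under 0.05 the count was also 0 of 10, against 4.5% of the genes tested (787), and DESeq2's Wald test gave 0 of 10 at either threshold, where it placed 19 (adjusted) and 644 (unadjusted) of the 17490 genes. The groups overlapped for all 10 genes, as they did for all but 1.06% of the genes tested. The median log2 fold change of the 10 genes was 0.01, with 5 fitted below 0 and 5 above, and that of all genes tested was 0.00.

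The fitted log2 fold change of *Fosb* was -0.35 (95% interval -1.15 to 0.45), from 1.06 ± 0.479 CPM (SD, n = 5) in control to 0.815 ± 0.397 CPM in *WD1* cKO embryos. With single libraries left out it ranged from -0.60 (without *WD1* cKO replicate 3) to -0.055 (without control replicate 5). That of *Fos* was -0.24 (-0.67 to 0.18, and -0.34 to -0.13 with single libraries left out, the latter without *WD1* cKO replicate 1), with 3.74 ± 0.818 CPM in control and 3.16 ± 0.810 CPM in *WD1* cKO embryos (SD, n = 5). That of *Egr3* was 0.22 (-0.18 to 0.62), with 7.07 ± 1.37 CPM in control and 8.18 ± 2.14 CPM in *WD1* cKO embryos (SD, n = 5). All intervals include 0, and the widest belong to the genes that spread most between embryos.

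*Egr1* was at a log2 fold change of -0.21 (SE 0.125, 95% interval -0.49 to 0.06, edgeR adjusted p = 1.00, exact two-sided permutation p = 0.159), at 10.8 ± 1.80 CPM in control and 9.26 ± 1.36 CPM in *WD1* cKO embryos (SD, n = 5). For *Jun* it was 0.11 (-0.04 to 0.26, exact permutation p = 0.183), with 59.0 ± 5.98 and 63.7 ± 4.25 CPM (SD, n = 5). *Jun* and *Junb* (0.07, -0.12 to 0.27) had the narrowest intervals along with *Nr4a1* (0.07, -0.17 to 0.31), so these bound a difference more closely than those of *Fosb* or *Fos*. The remaining log2 fold changes were 0.11 for *Fosl2* (-0.12 to 0.35), -0.15 for *Npas4* (-0.49 to 0.20) and -0.05 for *Arc* (-0.48 to 0.38). With single libraries left out these values ranged from 0.06 to 0.15 for *Jun*, from 0.02 to 0.11 for *Junb*, from 0.01 to 0.16 for *Nr4a1*, from 0.05 to 0.19 for *Fosl2* and from -0.23 to -0.06 for *Npas4*. That of *Arc* (-0.19 to 0.08) changed sign when control replicate 4, control replicate 5 or *WD1* cKO replicate 1 was left out. That of *Egr3* ranged from 0.13 (without *WD1* cKO replicate 2 or 5) to 0.35 without *WD1* cKO replicate 1 (unadjusted p = 0.0363, adjusted p = 0.940 from edgeR), and that of *Egr1* from -0.15 (without control replicate 1 or 5) to -0.31 without *WD1* cKO replicate 3 (unadjusted p = 0.0196, adjusted p = 0.999 from edgeR). Without control replicates 3 and 5 together, which held the most spinal cord and muscle marker reads, the log2 fold change of *Jun* was 0.21 (unadjusted p = 0.00934, adjusted p = 0.973 from edgeR), and the values of *Fosb* (0.096) and *Npas4* (0.079) were above 0. In the same setting *Egr3* was at 0.40 (unadjusted p = 0.0744 from edgeR), *Nr4a1* at 0.17 and *Junb* at 0.005. That alternative was chosen after the values were seen.

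**Figure D2:**
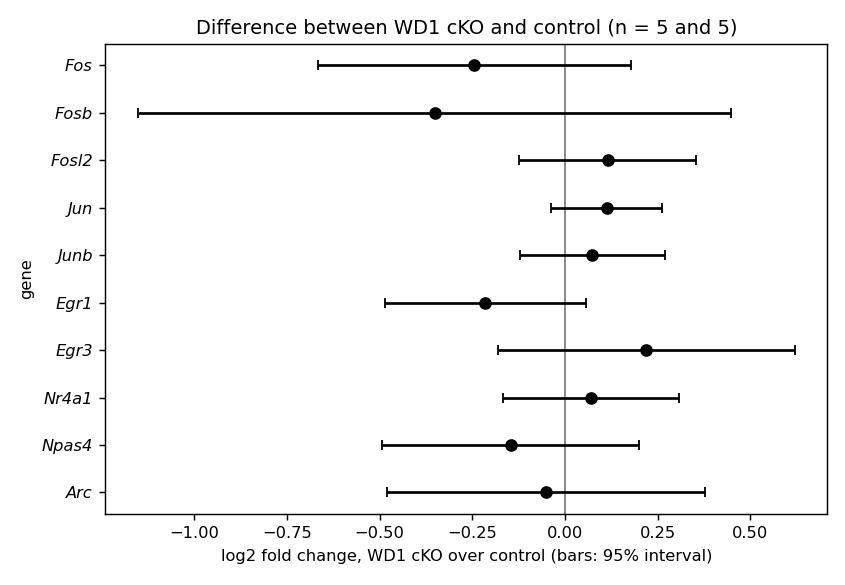
Log2 fold change of *WD1* cKO over control (horizontal axis) for each immediate early gene (vertical axis), from edgeR's quasi-likelihood fit with n = 5 per group; bars are 95% intervals and the vertical line marks 0. All 10 intervals include 0, and that of *Fosb*, from -1.15 to 0.45, is the widest.

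The spread between embryos of the same group was measured as the coefficient of variation that remains after counting noise, from the genewise dispersion of edgeR. It was 42.2% for *Fosb*, 22.5% for *Egr3*, 21.3% for *Fos* and 20.1% for *Arc*. These 4 of 10 genes were among the most variable 10% of the genes tested, whose limit was 19.6%. *Egr1* (14.1%), *Nr4a1* (13.6%), *Fosl2* (12.5%), *Npas4* (11.9%) and *Jun* (8.21%) followed, and *Junb* (5.47%) was next to the median of all genes, 5.44%. The median over the 10 genes was 13.9%.

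Spread also depends on level, since low genes vary more in this measure. Among the 6088 genes between 20 and 100 CPM, where the median was 4.46%, *Nr4a1* was beyond the 90th percentile of 10.5% and *Jun* was not. Among the 3729 genes between 5 and 20 CPM *Egr3* was beyond the 90th percentile of 16.8%, and *Junb* was below the median of 6.55%. *Fos*, *Npas4* and *Arc* were above the median of 10.2% but within the 90th percentile of 28.4% of the 2995 genes between 1 and 5 CPM. *Fosb* was beyond the 90th percentile of 37.3% of the 2149 genes below 1 CPM. The count of 4 was lower in some settings. Without *WD1* cKO replicate 1, the embryo in which 0 of 10 genes exceeded their own mean, 1 gene (*Fosb*) was among the most variable 10%, as was also the case with the SD of log2 CPM, which includes counting noise. With the replicate number as a block, 2 genes were (*Egr1* and *Egr3*), and *Fos*, *Fosb* and *Arc* were not.

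**Figure D3:**
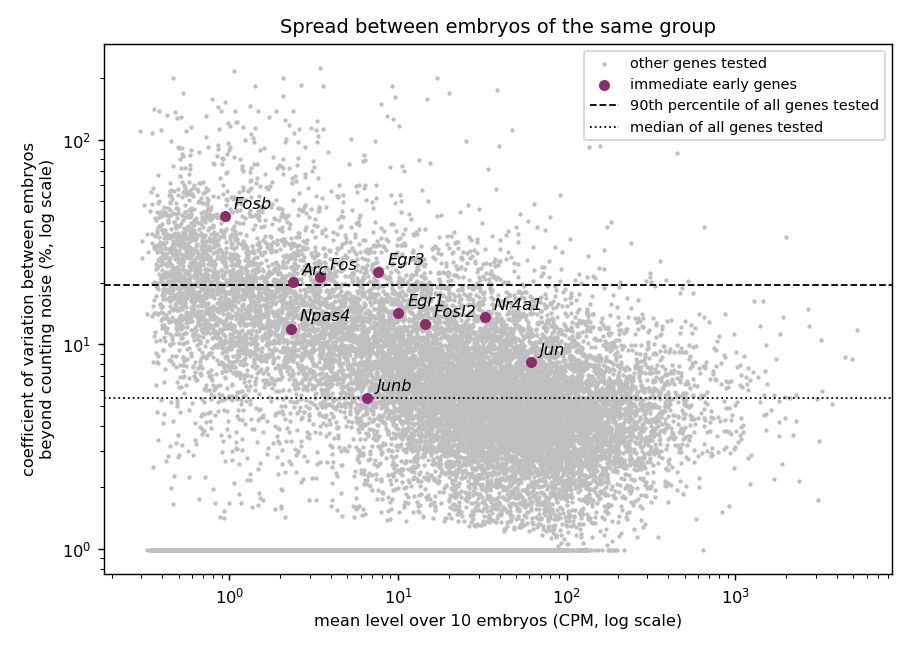
Coefficient of variation between embryos beyond counting noise (vertical axis, percent, log scale) against mean level (horizontal axis, CPM, log scale) of the 17490 genes tested (grey) and the immediate early genes (purple); the row of grey points at the bottom holds genes at the lowest dispersion the fit allows. *Fosb*, *Egr3*, *Fos* and *Arc* lie above the dashed 90th percentile at 19.6%, and *Junb* lies at the dotted median of 5.44%.

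The number of genes above their own mean differed between embryos. It was 0 of 10 in *WD1* cKO replicate 1, 2 in control replicate 1 and 3 in control replicate 2, and it was 9 in *WD1* cKO replicate 5 and 8 in control replicate 5. *WD1* cKO replicate 1 held the lowest value of the 10 embryos for 4 genes (*Fos*, *Egr3*, *Nr4a1* and *Arc*). Control replicate 5 held the highest value for 3 genes (*Fos*, *Fosb* and *Nr4a1*) and the lowest for *Junb*. High and low embryos occurred in both groups.

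Co-variation was measured for the 45 pairs of the 10 genes over the 10 embryos, as Pearson's r of log2 CPM. The embryos share group, depth and tissue composition within a library, so the same count was made over all pairs of genes tested. Of the 45 pairs, 4 had an r above 0.7, against 2.56% of all pairs of genes, and the median r was 0.31, against 0 over all pairs of genes. The r was above 0 in 35 pairs and below 0 in 10. Between deviations from the group means, 4 pairs also had an r above 0.7, against 3.51% of all pairs of genes.

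*Egr3* and *Nr4a1* varied most closely together, with r = 0.915 (permutation p = 0.00012, adjusted p = 0.0054 over the 45 pairs) and Spearman's rho = 0.927 (permutation p = 0.00031, adjusted p = 0.0140). Without the pair of embryos farthest from the median of *Egr3*, r was 0.867. Embryos low in both were *WD1* cKO replicate 1 and control replicate 2, and those high in both were control replicate 5 and *WD1* cKO replicates 2 and 5. This was the only pair of the 45 with an adjusted permutation p under 0.05, while 6 pairs had an unadjusted one.

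*Fos* and *Arc* had r = 0.805 (permutation p = 0.00454, adjusted p = 0.102) and rho = 0.806 (permutation p = 0.0071, adjusted p = 0.160), with r = 0.735 without the 2 embryos farthest from the median of *Fos*. As given above, replicates 4 and 5 of each group were high in both. *Jun* and *Egr3* had r = 0.758 (permutation p = 0.00969, adjusted p = 0.145) and rho = 0.782 (permutation p = 0.0111, adjusted p = 0.167), with r = 0.726 without the 2 farthest embryos, and r was not above 0.7 without *WD1* cKO replicate 5. *Fosb* and *Npas4* had r = 0.746 (permutation p = 0.0134, adjusted p = 0.151) and rho = 0.685 (permutation p = 0.0347, adjusted p = 0.390). Their r was 0.441 without the 2 embryos farthest from the median of *Fosb*, so this relation rests on those embryos, and r was not above 0.7 without control replicate 5 or without *WD1* cKO replicate 2. With the replicate number as a block, r was 0.0933 for *Fos* with *Arc* and -0.199 for *Fosb* with *Npas4*. Under that block it was 0.956 for *Egr3* with *Nr4a1* and 0.732 for *Jun* with *Egr3*.

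Not all of these genes moved together. *Fos* and *Jun*, which form the classical AP-1 dimer, had r = -0.102 (permutation p = 0.778, adjusted p = 0.876) and rho = -0.248 (permutation p = 0.492, adjusted p = 0.820), with r = -0.392 without the 2 embryos farthest from the median of *Fos*. For *Fos* and *Fosb* r was 0.619 (permutation p = 0.0558, adjusted p = 0.359) and rho 0.515 (permutation p = 0.134, adjusted p = 0.696), and r was 0.289 without the 2 embryos farthest from the median of *Fos*. With the replicate number as a block, however, r was 0.849 for *Fos* with *Fosb*, and -0.432 for *Fos* with *Jun*. Under the same block *Egr1* had r = 0.950 with *Fos* and 0.931 with *Fosb*. *Junb* with *Egr1* had the lowest r of the 45, -0.486 (permutation p = 0.159, adjusted p = 0.579), with a rho of -0.0788 (permutation p = 0.838, adjusted p = 0.920). Without the 2 embryos farthest from the median of *Junb* it was -0.0395, so this relation rests on those embryos. The number of pairs above 0.7 was 8 without control replicates 3 and 5, where 4.03% of all pairs of genes were above it, and *Egr3* with *Nr4a1*, *Fos* with *Arc* and *Jun* with *Egr3* were among the 8.

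**Figure D4:**
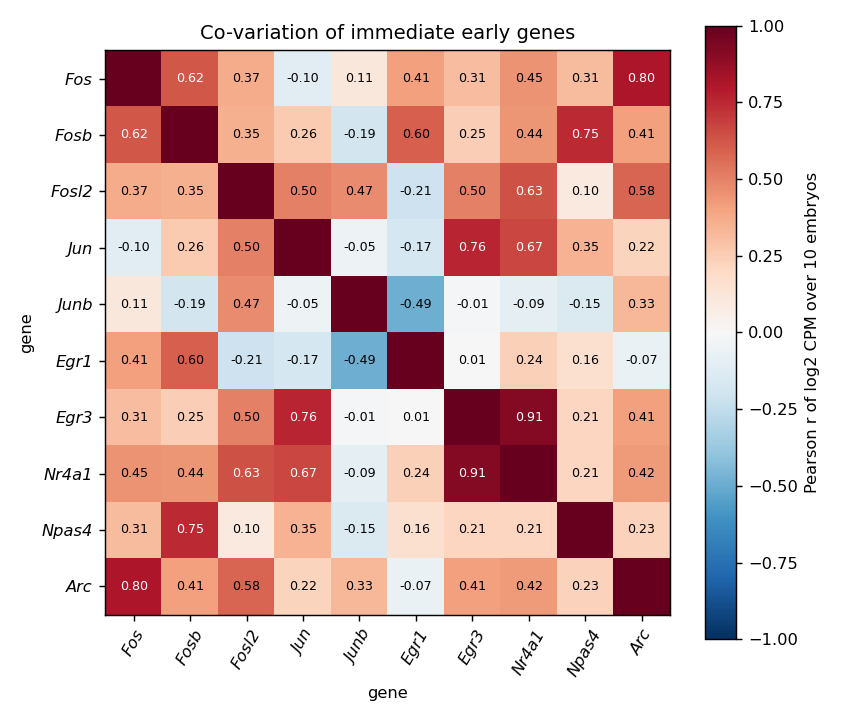
Pearson's r of log2 CPM over the 10 embryos for each pair of immediate early genes (both axes), printed in each square and coloured from blue at -1 to red at 1. The highest values are those of *Egr3* with *Nr4a1* and *Fos* with *Arc*, and the lowest is that of *Junb* with *Egr1*.

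For each gene outside the 10, the deviations of log2 CPM from the group means were correlated with the mean standardized deviation of the 10 immediate early genes over the 10 embryos. Among the genes with at least 1 CPM, the highest r belonged to *S1pr3* (0.960), *Ift22* (0.951), *Ssr2* (0.950), *Lpar1* (0.948), *Atp8b5* (0.947), *Omg* (0.939), *Tmco1* (0.938), *Rnaseh2b* (0.935), *Bfar* (0.933) and *Cav1* (0.932). *S1pr3* ranged from 71.9 CPM in *WD1* cKO replicate 1 to 97.9 CPM in *WD1* cKO replicate 5. The lowest r belonged to *Maml3* (-0.951), *Mdga1* (-0.941), *Eif4enif1* (-0.938), *Tenm4* (-0.938) and *Tlk1* (-0.936). These genes were picked as the extremes of 15309 genes, so a high r is given as a description and without a test.

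Spread and genotype were also read for 41 other immediate early genes. Of these, 38 passed the filter on low counts, 7 were among the most variable 10% and their median coefficient of variation was 9.32%. Against genotype, edgeR's test placed 0 of 38 under an adjusted p-value of 0.05 (also 0 with DESeq2's Wald test) and 1 under an unadjusted one, *Sik1* (log2 fold change -0.14, unadjusted p = 0.0493). The median log2 fold change was -0.00, with 20 fitted below 0 and 18 above. *Plk2* was the most abundant in counts, at 169 ± 22.9 CPM in control and 168 ± 16.9 CPM in *WD1* cKO embryos (SD, n = 5). *Egr2*, which drives myelination in Schwann cells, varied the most, with a coefficient of variation of 60.1%. It was at 1.90, 1.72, 2.40, 5.59 and 5.46 CPM in control and at 1.39, 5.81, 3.35, 8.84 and 7.88 CPM in *WD1* cKO replicates 1 to 5. It was highest in replicates 4 and 5 of each group, the embryos with the most *Fos* and *Arc*.

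Of 18 regulators of immediate early genes, 17 could be tested. *Mef2c*, an activity-dependent transcription factor, was the only one past an adjusted p-value of 0.05. It was at 91.8, 85.5, 77.4, 81.9 and 86.2 CPM in control and at 71.7, 62.3, 64.3, 60.4 and 63.5 CPM in *WD1* cKO replicates 1 to 5. All *WD1* cKO embryos lay below all controls, and the log2 fold change was -0.39 (95% interval -0.51 to -0.28, edgeR adjusted p = 0.0282). The adjusted p-value was above 0.05 (0.0857 to 0.145) when any single library other than control replicate 3 or *WD1* cKO replicate 1 was left out, and 0.0737 without control replicates 3 and 5. In the 8 fits with a single library left out the log2 fold change itself was between -0.40 and -0.36. *Crtc1*, a coactivator of CREB, had a log2 fold change of -0.10 (unadjusted p = 0.0382). *Mef2a* was the most abundant and *Nab2*, a corepressor of the Egr factors, the most variable of the list. The median log2 fold change was 0.01.

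Genes of cellular stress were followed because dissection can change them. Of 11 heat shock genes, 11 hypoxia genes, 8 genes of endoplasmic reticulum stress and 10 nerve injury genes (9 of them tested), 0 had an adjusted or unadjusted p-value under 0.05 between the groups in edgeR's test. DESeq2's Wald test gave 0 at the adjusted threshold as well. The median log2 fold changes were 0.03, 0.02, 0.02 and -0.04. The summed level of the hypoxia genes was 824, 795, 830, 976 and 972 CPM in control and 844, 887, 830, 940 and 982 CPM in *WD1* cKO replicates 1 to 5. It was highest in replicates 4 and 5 of each group, as for *Fos* and *Arc*. *Ldha* was the most abundant hypoxia gene and *Adm* the most variable (48.5%).

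The heat shock genes summed to 1099, 1142, 1140, 1180 and 1274 CPM in control and to 1195, 1198, 1149, 1171 and 1242 CPM in *WD1* cKO replicates 1 to 5, with *Hspa8* the most abundant and *Bag3* the most variable. The highest sums were those of replicate 5 in each group, where 8 (control) and 9 (*WD1* cKO) of the 10 immediate early genes exceeded their own mean. Other embryos went the other way. *WD1* cKO replicate 1, with 0 of 10 above their mean, had a higher sum (1195 CPM) than *WD1* cKO replicates 3 (1149 CPM, 6 of 10) and 4 (1171 CPM, 7 of 10). The stress-inducible genes *Hspa1a* and *Hspa1b* ranged from 0.683 to 1.67 CPM and from 1.77 to 2.63 CPM, and as near-identical copies they share reads. Genes of endoplasmic reticulum stress, led by *Hspa5*, summed to between 739 and 842 CPM. Nerve injury genes summed to between 968 and 1148 CPM. Most of this sum came from *Gap43*, at 887 ± 46.3 CPM in control and 864 ± 39.7 CPM in *WD1* cKO embryos (SD, n = 5). *Atf3*, a low gene of this list, was at 2.07 ± 0.319 CPM in control and 2.58 ± 0.371 CPM in *WD1* cKO embryos (SD, n = 5). Its log2 fold change was 0.31 (95% interval -0.0003 to 0.63, edgeR unadjusted p = 0.0502). Unlike the hypoxia genes, the nerve injury genes were lowest as a sum in replicates 4 and 5 of each group. Their sums there were 1035.5 and 1011.8 CPM in control and 968.2 and 1003.8 CPM in *WD1* cKO embryos, against at least 1070.2 CPM elsewhere. *Ecel1*, the most variable of them, was at 18.8 CPM in control replicate 5 and at most at 3.81 CPM elsewhere. The part of hypoxia, handling or injury in the levels of the immediate early genes was not tested.

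Markers of neighbouring tissues differed between libraries as well. The 7 muscle markers summed to 138, 61.4, 123, 26.2 and 226 CPM in control and to 60.8, 63.1, 123, 76.0 and 55.8 CPM in *WD1* cKO replicates 1 to 5. The median log2 fold change was -0.64, with 7 of 7 fitted below 0 and 0 past an unadjusted or adjusted p-value of 0.05 in edgeR's test or an adjusted one in DESeq2's. The summed level was highest in control replicate 5, the embryo with the most *Fos*, *Fosb* and *Nr4a1*, and lowest in control replicate 4, which had the most *Arc*. *Acta1* was the most abundant and *Myh3* the most variable, all 7 (also *Actc1*, *Myh8*, *Tnnt3*, *Ttn* and *Ckm*) were among the most variable 10%, and none was at 0. The 6 blood markers, with globin genes among them, summed to 2471, 1637, 1074, 155 and 183 CPM in control and to 1137, 703, 510, 243 and 189 CPM in *WD1* cKO replicates 1 to 5. They were lowest in replicates 4 and 5 of each group, their median log2 fold change was -0.94 with no p-value under 0.05, *Hbb-bs* was the most abundant, none was at 0, and the near-identical globin copies share reads.

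The 7 spinal cord markers summed to 11.7, 10.8, 26.6, 11.4 and 11.8 CPM in control and to 10.1, 9.92, 10.1, 10.6 and 10.4 CPM in *WD1* cKO replicates 1 to 5. *Aldh1l1*, which is also found in satellite glia, was the most abundant of them, at 11.4 CPM of the 26.6 in control replicate 3, and was the only one tested (log2 fold change -0.21, unadjusted p = 0.00437). The defining genes *Slc6a5*, *Pax2*, *Slc32a1*, *Olig1*, *Olig2* and *Mnx1* each had a count of 0 in at least 1 library, while *Slc6a5* reached 4.66 CPM and *Pax2* 3.81 CPM in control replicate 3. Control replicate 3 had the most *Npas4* of all embryos and the least *Fos* of the controls. Connective tissue markers, led by *Col3a1*, were highest in this embryo too, at 5835 CPM, and *Lum* had a log2 fold change of 0.22 (unadjusted p = 0.0277) between the groups.

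Of the remaining lists, the sensory neuron markers, led by *Prph*, had a median log2 fold change of -0.08, with *Isl1* the most variable, and the glia markers, led by *Mbp*, had a median of 0.07. Glia markers summed to 964, 910, 1029, 1063 and 1027 CPM in control and to 879, 1062, 972, 1152 and 1087 CPM in *WD1* cKO replicates 1 to 5, and none was at 0 in any library. Endothelial markers, led by *Cdh5* with *Cldn5* the most variable, summed to between 250 and 310 CPM. They were lowest in replicates 4 and 5 of each group, at 258 and 261 CPM in control and 253 and 250 CPM in *WD1* cKO embryos. Macrophage markers, led by *Csf1r* with *C1qc* the most variable, summed to between 65.8 and 77.8 CPM. Of all 141 listed genes tested outside the 10, *Mef2c* alone passed an adjusted p-value of 0.05, with edgeR as with DESeq2's Wald test, and 6 had an unadjusted one in edgeR's test. The part of these cells in the levels of the immediate early genes was not tested.

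**Figure D5:**
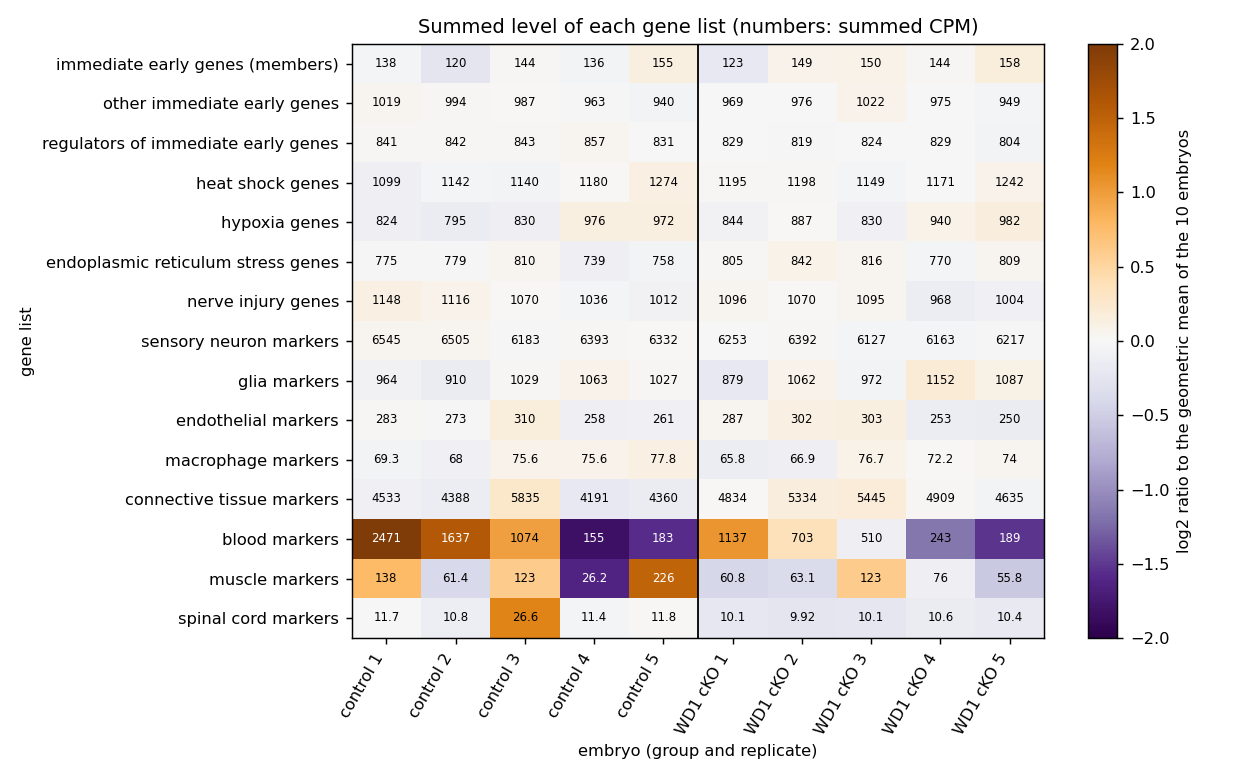
Summed level of each gene list (vertical axis) in each embryo (horizontal axis), printed in CPM and coloured by the log2 ratio to the geometric mean of the 10 embryos, from purple (lower) to orange (higher). Blood, muscle and spinal cord markers differ most between embryos, and hypoxia genes are highest in replicates 4 and 5 of both groups.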

How the data were processed

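Stranded mRNA libraries, 1 per embryo, were analysed from DRG of 5 *WD1* cKO and 5 control animals, grouped by the sample titles. The authors deposited raw read counts per Ensembl gene, which they made with bcl2fastq 2.20.0.422, STAR 2.7.8a on GRCm39 and featureCounts 2.0.1. The strand setting of the counting is not given in the sources used here. Genes reaching 10 counts in 5 or more libraries were scaled by TMM and compared by the quasi-likelihood test of edgeR 4.0.16 (R 4.3.3). P-values were adjusted after Benjamini and Hochberg, with a threshold of 0.05. DESeq2 1.42.0 was an alternative. Log2 CPM used a prior count of 2, and permutation tests 100000 resamples (scipy 1.17.1), or all regroupings of 5 against 5. The scripts were tested on simulated data. Other scaling, filters, a replicate block and leaving out each library were tried, and leaving out control replicates 3 and 5 together was chosen after seeing the data. All 10 immediate early genes are named, and from other lists those with an unadjusted p-value under 0.05, the most abundant, the most variable, and lists whose level differed over 2 times between libraries. The members and lists were chosen with earlier results of these data known. *Atf3*, *Ecel1*, *Hspa1a* and *Hspa1b* were described after their values were seen. Some genes that this rule takes are not reported here.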

Additional observations from a re-analysis of the deposited data

Results flagged for a closer look

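Of 50 groups of 5 values examined, 3 held an embryo far from the others of its group, measured as the gap to the nearest value over the whole range, with a limit of 0.71. Chance gives about 1 in 20 such groups. *Nr4a1* was at 24.9 CPM in *WD1* cKO replicate 1 and at 34.4 to 36.7 CPM in the other *WD1* cKO embryos, with a ratio of 0.807. Control replicate 3 had a summed level of spinal cord markers of 26.6 CPM, against 10.8 to 11.8 CPM in the other controls, with a ratio of 0.935. The same embryo had a summed level of connective tissue markers of 5835 CPM, against 4191 to 4533 CPM, with a ratio of 0.792.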

How the results depend on the processing

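With 5 embryos a group, the intervals of *Fosb* (-1.15 to 0.45) and *Arc* (-0.48 to 0.38) are wide on either side of 0 and that of *Fos* (-0.67 to 0.18) mainly below it, *Fosb* rests on 9 to 42 counts per library, and whole ganglia do not separate cell types. No immediate early gene passed an adjusted p-value of 0.05 with edgeR under any alternative or with DESeq2's Wald test. An unadjusted p under 0.05 occurred in 3 settings, for a different gene in each (*Egr3*, *Egr1* and *Jun*), named with their libraries in the genotype comparison. Of 166 alternative fold changes of the 10 genes, 161 kept their direction and side of the threshold. The 5 others changed sign: *Fosb* (0.096) and *Npas4* (0.079) without control replicates 3 and 5, chosen after seeing the data, and *Arc* with single libraries left out (range -0.19 to 0.084, with 0.084, 0.015 and 0.037 above 0). Of 112 values of other named genes, 103 kept both and 9, all of *Mef2c*, kept their direction and lost the adjusted threshold.

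The number of all genes changed, 7, was 4 among the 12754 genes averaging 100 counts or more, 19 with DESeq2's Wald test, 4 without control replicates 3 and 5, and 3 to 6 with single libraries left out. It was 7 with DESeq2 size factors and 10 without a filter. The number of listed genes changed, 1, was 0 without control replicates 3 and 5 and 0 to 1 with single libraries left out. The number of immediate early genes among the most variable 10%, 4, was 1 (*Fosb*) by the SD of log2 CPM and 1 to 4 with single libraries left out. The number of pairs with r above 0.7, 4, was 8 without control replicates 3 and 5 (4.03% of all pairs of genes), 3 to 6 with single libraries left out and 3 by Spearman's rho. Apart from fewer genes or embryos in a fit, the cause was not tested.

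Embryos share replicate numbers across the groups. Deviations from the group means correlated between same-numbered embryos with r = 0.326, 0.0359, 0.319, 0.351 and 0.391 for numbers 1 to 5. The numbers were not taken as pairs because number 2 was under 0.1 and the labels tie no number to a litter. Control replicates 1, 3 and 5 correlated best with their own number, 2 with number 1 and 4 with number 5. With the replicate number as a block, 8 genes and 0 immediate early genes changed, 2 immediate early genes (*Egr1* and *Egr3*) were among the most variable 10%, and *Fos*, *Fosb* and *Arc* were not. Under the block 9 of 45 pairs had an r above 0.7, against 9.83% of all pairs of genes, and *Egr3* with *Nr4a1* (0.956) and *Jun* with *Egr3* (0.732) were among the 9, whereas *Fos* with *Arc* had r = 0.0933 and *Fosb* with *Npas4* r = -0.199. Also among the 9 were *Fos* with *Fosb* (0.849), *Fos* with *Egr1* (0.950) and *Fosb* with *Egr1* (0.931), which were at 0.619, 0.408 and 0.598 without the block.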
